A study of Mus musculus with 6 samples.

Results

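The genes described here encode oncostatin M and its receptor, the related cytokines interleukin 6 and leukaemia inhibitory factor with their receptors, and the shared signalling chain behind them. The family was taken as 10 symbols, Osm, Il6, Lif, Osmr, Lifr, Il6ra, Il6st, Jak1, Stat3 and Socs3, and every probe set annotated to exactly 1 of them was used, which gave 26 of the 34945 probe sets with 1 gene symbol. All 10 were among the 18193 genes measured, and the brightest probe set stood for each gene. The family was chosen on the comparison of the sorted fractions, in which Osmr was already known to differ, so the values below describe these arrays and are not independent evidence for a difference in the family.

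The samples were cells sorted from small cell lung tumours, a neuroendocrine cancer of the lung, of mice on a mixed C57BL/6;129Sv/J background. All tumours carried the Rb/p53/p130 triple knockout, were started by adenoviral Cre recombinase, received no treatment, and were harvested 6 to 7 months after infection. A sort on the surface proteins CD24, CD44 and EpCAM divided the dissociated cells into a tumour-propagating fraction (TPCs) and the non-TPCs. Mice 1127, 920 and 0107 gave 1 array of each fraction, so 3 TPC and 3 non-TPC arrays were compared, and this number limits the precision. The sources used here give neither the gates nor the cell type in which the adenovirus expressed Cre, and a sorted fraction may hold host cells beside tumour cells.

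Levels are RMA values on a log2 scale, in which 1 unit is a 2-fold difference, and differences are TPC minus non-TPC. All 10 measured neuroendocrine markers were above the median level of all genes, 6.91, and Insm1, a neuroendocrine transcription factor, lay between 10.61 and 12.36 in the 6 arrays. The non-TPC array of mouse 0107 stood apart. In that mouse 4.0% of all genes were at least 1 unit higher in TPCs than in non-TPCs, against 0.214% in mouse 1127 and 0.236% in mouse 920. Differences of family members that rest on mouse 0107 are therefore given with and without it. Across all genes limma called 11 lower in TPCs and 0 higher at an adjusted p under 0.05, and 792 and 386 at an unadjusted p under 0.05.

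Interleukin 6 type cytokines act through receptors that share gp130, the product of Il6st. Interleukin 6 binds its own receptor chain, encoded by Il6ra, and gp130, leukaemia inhibitory factor joins gp130 to the receptor encoded by Lifr, and oncostatin M joins gp130 to the receptor encoded by Osmr. The assembled receptors activate Janus kinases, Jak1 foremost, which phosphorylate the transcription factor Stat3. Stat3 induces Socs3, whose product binds gp130 and the kinases and shuts the signal down. In lung and other tissues fibroblasts, endothelial cells and macrophages are known sources of Il6, stromal cells carry the oncostatin M receptor, and neutrophils and macrophages are known sources of oncostatin M.

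Upstream sequence is shown for Osmr and Il6, the members with the largest differences, and for Socs3, the Stat3-induced brake. Each line gives the 250 bases before the annotated start, from RefSeq on GRCm38.p6, read 5′ to 3′ on the strand of the gene. Capitals mark matches to TTCNNNGAA, the core letters of STAT binding sites, or to TGANTCA, the core letters of AP-1 sites. Both patterns are their own reverse complement, so 1 search covers both strands.
Osmr (chr15:6874314-6874563, minus strand): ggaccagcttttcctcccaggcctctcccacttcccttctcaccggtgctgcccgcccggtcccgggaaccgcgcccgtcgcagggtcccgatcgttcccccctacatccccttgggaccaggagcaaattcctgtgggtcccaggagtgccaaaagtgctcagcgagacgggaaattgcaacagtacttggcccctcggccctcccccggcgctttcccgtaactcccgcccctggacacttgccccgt
Il6 (chr5:30012864-30013113, plus strand): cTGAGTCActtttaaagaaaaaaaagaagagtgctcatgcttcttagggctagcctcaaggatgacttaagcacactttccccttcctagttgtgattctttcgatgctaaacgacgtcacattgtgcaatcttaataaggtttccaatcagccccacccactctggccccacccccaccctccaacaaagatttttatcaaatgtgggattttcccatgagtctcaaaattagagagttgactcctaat
Socs3 (chr11:117969367-117969616, minus strand): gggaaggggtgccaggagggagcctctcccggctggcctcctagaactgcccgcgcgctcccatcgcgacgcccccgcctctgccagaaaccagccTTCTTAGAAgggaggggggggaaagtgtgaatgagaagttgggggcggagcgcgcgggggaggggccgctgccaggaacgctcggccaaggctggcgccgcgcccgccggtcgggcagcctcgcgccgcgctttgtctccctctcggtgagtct

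RefSeq windows were found for 9 of the 10 genes, with Osm the one not matched. The Socs3 window held 1 TTCNNNGAA match, TTCTTAGAA, whose first base lies 154 bases before the start, and 7.02% of all 32851 windows of this length held one. The Il6 window held TGAGTCA, with its first base 249 bases before the start, and the Lif window held TGACTCA, 228 bases before it. A TGANTCA match was present in 6.75% of all windows. These are matches of letters and not measured binding sites, and their part in the expression values was not tested.

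Of the 3 ligand genes, Il6 and Osm had every TPC array below every non-TPC array, Lif overlapped, and none passed the limma test. Il6 (probe set 1450297_at) stood at 4.35, 4.82 and 4.28 in the TPCs of mice 1127, 920 and 0107 and at 9.94, 7.58 and 5.87 in their non-TPCs. All 3 TPC arrays lay near the first quartile of the array values (4.52 to 4.65), while the non-TPC arrays were spread over more than 4 units and were highest in mouse 1127, and the groups did not overlap. The mean difference was -3.31 (SE 0.93, 95% interval -5.54 to -1.09). It did not pass the test over all genes in limma (adjusted p = 0.557, and 0.277 when the mouse entered as a replicate block). The size depended on the mouse, at -5.59, -2.76 and -1.59 in mice 1127, 920 and 0107. Leaving out single arrays or mice gave -4.27 to -2.17. The smallest value, without mouse 1127, passed in neither fit (limma adjusted p = 0.9997, and 0.542 blocked). The -4.17 without mouse 0107 passed in the blocked fit (0.0156) and not in the main one (0.237). That blocked fit was added after the data were seen and called 527 of all genes, against 13 with all mice. The TPC level is that of dim probe sets and has no clear distance from background, so the size of the difference is uncertain. In sorted bulk samples fewer cells of a type and less RNA per cell cannot be told apart, here and for every gene below.

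Oncostatin M, the ligand of Osmr, showed a smaller difference in the same direction. Osm (1438767_at) was at 6.53, 6.93 and 6.70 in the TPCs of mice 1127, 920 and 0107 and at 7.31, 7.35 and 7.92 in the non-TPCs. Every TPC array lay below every non-TPC array. The means were 6.72 ± 0.20 and 7.53 ± 0.34 (SD, n = 3), a difference of -0.81 (SE 0.21, limma adjusted p = 0.517). Lif (1421207_at), which encodes leukaemia inhibitory factor, was at 6.11, 5.66 and 5.73 in TPCs and at 6.58, 6.27 and 5.67 in non-TPCs, and its groups overlapped. Its difference was -0.34 (95% interval -0.96 to 0.28), and it was lower in TPCs of mice 1127 and 920 only. Osm and Lif are neighbours on chromosome 11 in the RefSeq annotation.

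**Figure D1:**
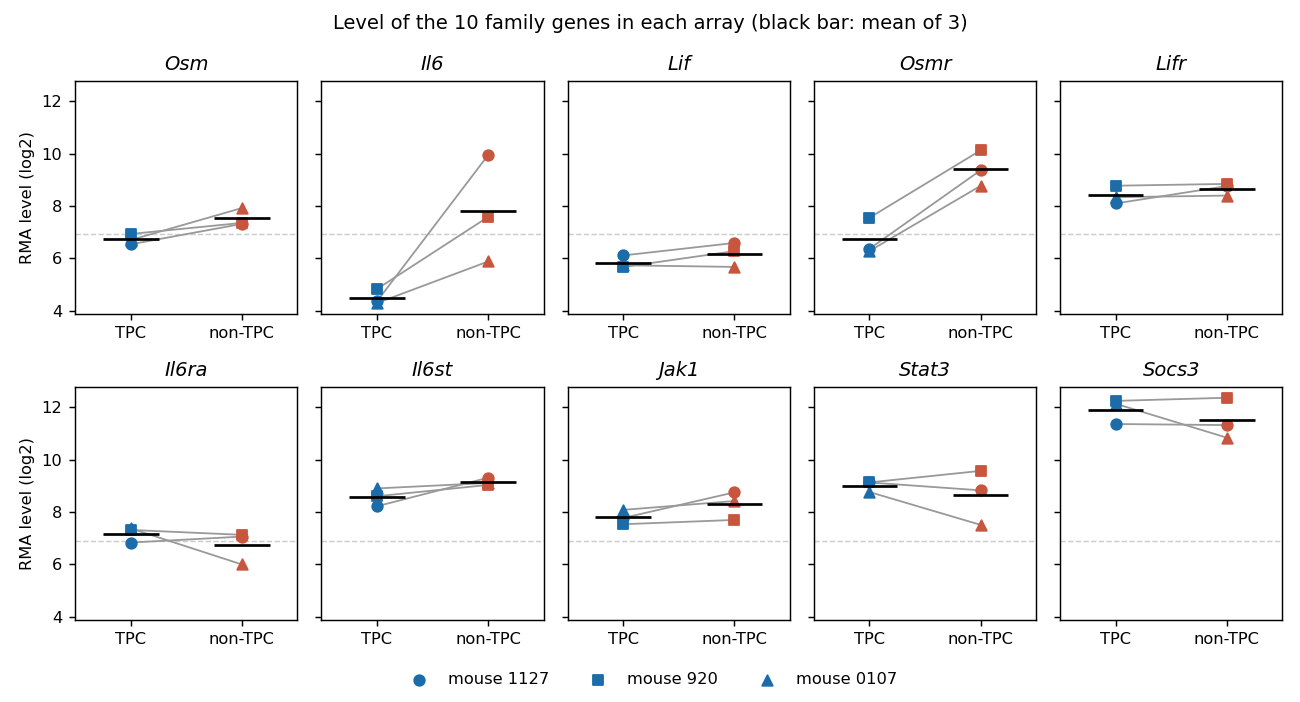
RMA level (log2) of the 10 family genes in each of the 6 arrays, with a symbol for each mouse, a grey line joining the TPC and non-TPC arrays of a mouse, a black bar for the mean of 3 arrays and a dashed line at the median level of all genes (6.91). Osmr, Il6, Osm and Il6st show no overlap between the fractions, and Stat3, Socs3 and Il6ra are lowest in the non-TPC array of mouse 0107.

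Among the receptors, Osmr set the fractions apart in every mouse. Osmr (1418674_at) was at 6.36, 7.55 and 6.27 in the TPCs of mice 1127, 920 and 0107 and at 9.36, 10.12 and 8.77 in their non-TPCs. The lowest non-TPC array was above the highest TPC array by more than 1 unit, and mouse 920 was highest in both fractions. The means were 6.73 ± 0.71 and 9.42 ± 0.68 (SD, n = 3). The difference of -2.69 (SE 0.45, 95% interval -3.78 to -1.60) made Osmr 6.46-fold lower in TPCs, the 48th lowest difference of all genes. Within mice 1127, 920 and 0107 it was -3.0, -2.58 and -2.49.

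Whether Osmr passed depended on how the spread was estimated. Against the spread between mice it did not (limma adjusted p = 0.2), and within mice, in the replicate block fit with an SE of 0.16, it did (adjusted p = 0.0286). A random block for the mouse gave an adjusted p of 0.0578. The blocked call was lost when mouse 1127 (adjusted p = 0.333) or mouse 920 (0.084) was left out. It held when mouse 0107 was left out (0.00206), in a fit that called 527 of all genes, against 13 with all mice. Blocked fits that left out a mouse were added after the data were seen. Over the 10 members the main comparison called 0, at a background of 0.0605% of all genes called lower, and the blocked fit called Osmr alone, at a background of 0.0715%. At an unadjusted p under 0.05 the main comparison had 4 members lower (Osmr, Osm, Il6 and Il6st) and 0 higher, at backgrounds of 4.35% and 2.12%. Since the contrast was known when the family was taken up, nothing is read from these counts.

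Lifr, the receptor for leukaemia inhibitory factor and the next protein-coding gene to Osmr on chromosome 15, did not show this pattern. Lifr (1454984_at) was at 8.09, 8.77 and 8.33 in TPCs and at 8.76, 8.84 and 8.39 in non-TPCs of mice 1127, 920 and 0107. The fractions overlapped, and in mice 920 and 0107 they differed by only -0.07 and -0.06. The difference was -0.27 (SE 0.22, 95% interval -0.79 to 0.26). Il6ra (1452416_at), the ligand-binding chain for interleukin 6, was at 6.83, 7.32 and 7.37 in TPCs and at 7.06, 7.13 and 6.00 in non-TPCs. Its low non-TPC array in mouse 0107 gave a mean difference of 0.45 (95% interval -0.35 to 1.24). Without mouse 0107 it was -0.0201.

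The brightest probe set of Il6st, the gene of the common chain gp130, was slightly lower in TPCs. Il6st (1452843_at) was at 8.22, 8.60 and 8.90 in TPCs and at 9.31, 9.04 and 9.11 in non-TPCs of mice 1127, 920 and 0107. The groups did not overlap, by a margin smaller than the spread within TPCs. The difference was -0.58 (SE 0.20, 95% interval -1.06 to -0.10, limma adjusted p = 0.663), and it shrank from -1.09 in mouse 1127 to -0.43 in mouse 920 and -0.21 in mouse 0107. A second Il6st probe set above the median level, 1437303_at, differed by -0.19 with overlapping groups and was higher in TPCs of mouse 0107. The dimmer 1421239_at and 1460295_s_at differed by 0.02 and 0.03, also with overlapping groups.

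**Figure D2:**
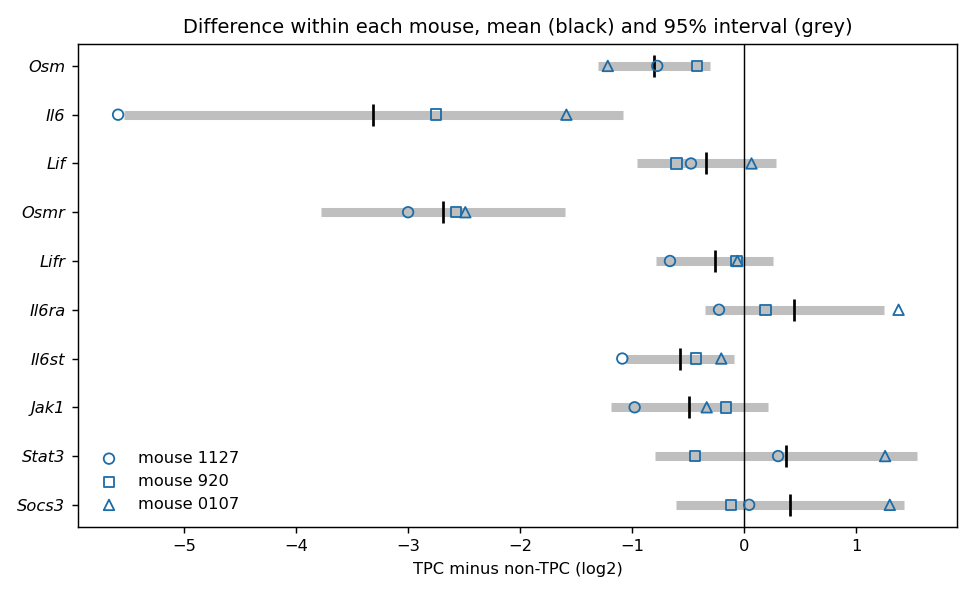
Difference between TPC and non-TPC arrays (log2) for each family gene, with open symbols for the 3 mice, a black tick for the mean and a grey bar for the 95% interval of the limma fit. Il6 and Osmr lie furthest to the left in all 3 mice, and the symbols of mouse 0107 lie above 1 for Il6ra, Stat3 and Socs3.

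The intracellular members were not lower as Osmr and Il6 were. Jak1 (1433803_at), the kinase bound to the receptor chains, was at 7.77, 7.53 and 8.08 in TPCs and at 8.75, 7.70 and 8.42 in non-TPCs of mice 1127, 920 and 0107. It was lower in the TPCs of each mouse, but the groups overlapped (difference -0.49, SE 0.29, 95% interval -1.20 to 0.21). A second Jak1 probe set, 1433805_at, differed by -0.49 (SE 0.18) with no overlap between the fractions, and the third, 1433804_at, by -0.12.

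Stat3 (1426587_a_at), the transcription factor of the pathway, was at 9.13, 9.13 and 8.77 in TPCs and at 8.83, 9.57 and 7.51 in non-TPCs of mice 1127, 920 and 0107. The 3 TPC arrays were close together, while the non-TPC arrays spread over 2 units with mouse 0107 lowest. The difference was 0.37 (SE 0.49, 95% interval -0.80 to 1.54). Within the mice it was 0.30, -0.44 and 1.26, and without mouse 0107 it was -0.0705. The second bright Stat3 probe set, 1460700_at, differed by 0.40, -0.22 and 0.84 in mice 1127, 920 and 0107. The third, 1459961_a_at, differed by -0.75, -0.53 and 0.98, with a mean of -0.10, opposite in sign to the first.

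Socs3 (1455899_x_at), induced by Stat3 and the gene whose upstream window held the STAT letters, was bright in every array. It was at 11.37, 12.25 and 12.14 in TPCs and at 11.32, 12.37 and 10.84 in non-TPCs of mice 1127, 920 and 0107. In mice 1127 and 920 the fractions were within 0.12 of each other, and in mouse 0107 TPCs were higher by 1.30. The mean difference was 0.41 (SE 0.43, 95% interval -0.61 to 1.43, limma adjusted p = 0.912), and without mouse 0107 it was -0.039. The interval still allows a difference of 1 unit upward. Of the other Socs3 probe sets, 1456212_x_at differed by 0.21, -0.22 and 1.52 in mice 1127, 920 and 0107. The third, 1416576_at, differed by -0.63, -0.40 and 0.97, with a mean of -0.0198, so the sign of the mean depends on the probe set. The ending x_at of 1455899_x_at and 1456212_x_at marks probes that may also bind related transcripts. Il6ra, Stat3 and Socs3 thus share a difference above 1 in mouse 0107 alone, where 4.0% of all genes had one.

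Over the 10 genes, 6 were lower in TPCs of all 3 mice (Osmr, Osm, Lifr, Il6, Il6st and Jak1), at a background of 13.8% of all genes, and 0 were higher in all 3, at a background of 19.7%. The fractions did not overlap for 4 of them, all lower in TPCs (Osmr, Osm, Il6 and Il6st), against 5.91% of all genes, while 6.71% of all genes stood apart in the other direction. The median difference of the 10 was -0.42, against 0.04 for all genes, with -0.72, -0.43 and -0.14 in mice 1127, 920 and 0107. The genes were chosen with these differences known, so the counts are a description.

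The 26 probe sets did not all show what the brightest did. Of these, 7 were lower in TPCs of 3 of 3 mice (12.8% of all probe sets) and 1, a dim Stat3 probe set, was higher in 3 of 3 (19.5%). The groups did not overlap for 5, all lower in TPCs (5.34%), and for 0 in the other direction (6.67%). The other 2 Osmr probe sets, 1459217_at and 1418675_at, had mean levels of 4.18 and 3.86 over the 6 arrays and differences of -0.09 and -0.06. Their levels lay below the first quartile of every array, so the Osmr difference rests on 1 probe set. With the mean of all its probe sets the Osmr difference was -0.95 (SE 0.20, limma adjusted p = 0.353). Il6 and Osm had 1 probe set each. The remaining Lifr probe sets, both near 5 in level, differed by 0.11 and -0.16.

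**Figure D3:**
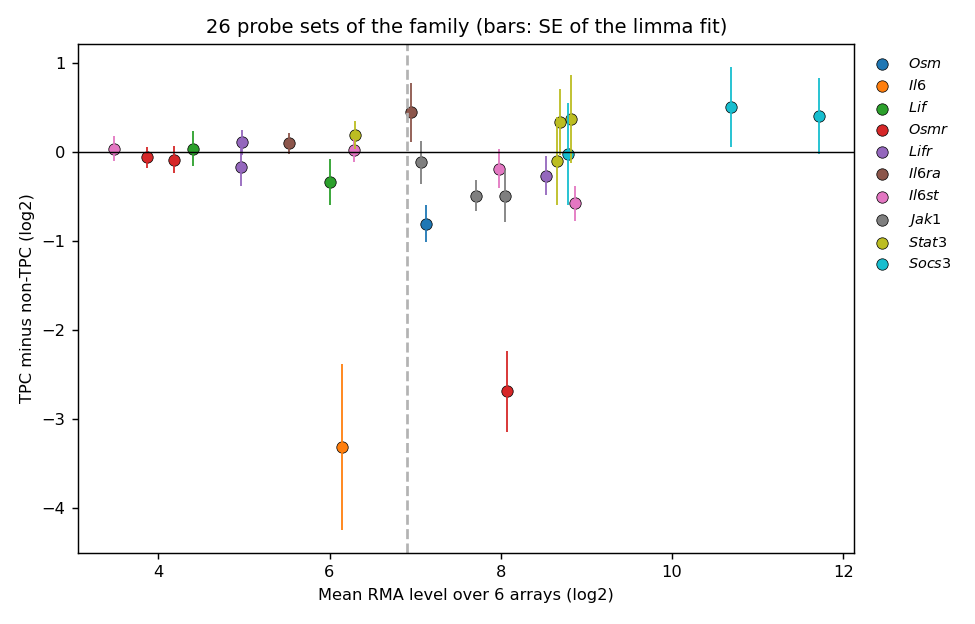
Mean RMA level over the 6 arrays (log2) against the TPC minus non-TPC difference (log2) for the 26 probe sets of the family, with bars for the SE of the limma fit and a dashed line at the median level of all genes. Only 1 probe set of Osmr and the probe set of Il6 lie below -1, and the 2 dim Osmr probe sets lie near 0.

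The other cytokines and receptors of the family were mostly dim and showed no difference of the size of Il6 or Osmr. Of 13 listed genes 8 were measured, 1 of them above the median level, and 0 passed in limma in either direction, with 1 higher and 0 lower at an unadjusted p under 0.05 (2.12% and 4.35% of all genes). Their median difference was 0.22, and 3 were higher in TPCs of all 3 mice, as were 19.7% of all genes. The 3 were Clcf1, a ligand of the ciliary neurotrophic factor receptor (difference 0.31, SE 0.13), Ebi3, a subunit of interleukin 27 (0.29, SE 0.16), and Il11, which encodes a further gp130 cytokine (0.26, SE 0.17). All 3 lay below the median level of all genes.

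The other kinases and STAT factors gave 0 of 8 measured genes past the limma test, with 1 lower and 0 higher at an unadjusted p under 0.05 (4.35% and 2.12% of all genes), and a median difference of -0.006. In TPCs of all 3 mice 1 was lower and 1 higher, against 13.8% and 19.7% of all genes. Stat4, which acts downstream of interleukin 12, was at 4.82, 5.04 and 4.94 in TPCs and at 6.28, 6.86 and 5.32 in non-TPCs of mice 1127, 920 and 0107. Its groups did not overlap and it differed by -1.22 (SE 0.37, limma adjusted p = 0.595). Leaving out the non-TPC array of mouse 0107 gave a Stat4 difference of -1.64, which passed (limma adjusted p = 0.046). That fit called 84 of all genes, against 11 with all arrays. Stat5b, which carries growth hormone and cytokine signals, differed by 0.30, with 0.003, 0.19 and 0.70 in mice 1127, 920 and 0107.

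The other SOCS and PIAS genes, phosphatases and adaptors stayed close to the median of all genes. Of 18 measured genes 17 were above the median level, 0 passed the limma test in either direction or had an unadjusted p under 0.05, 7 were higher and 2 lower in TPCs of all 3 mice (19.7% and 13.8% of all genes), and the median difference was 0.09. Ptpn6, the phosphatase SHP-1, differed by 0.51 (SE 0.22) with every TPC array above every non-TPC array. Socs7, a further SOCS family gene, differed by 0.37, the adaptor Gab1 by 0.42 and Pias4, a SUMO ligase, by 0.22. For Gab1 the difference was 0.14, 0.27 and 0.85 in mice 1127, 920 and 0107.

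Genes known to be induced through Stat3 went different ways. Of 32 measured targets 0 passed in limma, with or without the replicate block, and 8 were lower and 0 higher at an unadjusted p under 0.05 (4.35% and 2.12% of all genes). In TPCs of all 3 mice 12 were lower and 3 higher (13.8% and 19.7%), and the median difference was -0.19. The groups did not overlap for 8, all lower in TPCs, as for 5.91% of all genes. Those with the smallest p were acute phase and epithelial defence genes and a cyclin. Saa3, a serum amyloid A protein, was at 6.43, 6.93 and 7.29 in TPCs and at 8.60, 9.95 and 9.18 in non-TPCs of mice 1127, 920 and 0107, a difference of -2.36 (SE 0.38, limma adjusted p = 0.18). Reg3g, an antimicrobial lectin that is also in the club cell list, differed by -1.26 (SE 0.15, adjusted p = 0.0911, and 0.0391 in the random block fit). Ccnd1, which encodes cyclin D1, differed by -1.01 and Lrg1, a secreted glycoprotein of the acute phase, by -1.45.

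Lcn2, a siderophore-binding protein of neutrophils and inflamed epithelium that was singled out after its values were seen, had the largest difference of the target list. It was at 6.64, 7.51 and 6.16 in TPCs and at 9.96, 10.78 and 8.16 in non-TPCs, a difference of -2.87 (SE 0.68, limma adjusted p = 0.427). When the non-TPC array of mouse 0107 was dropped, Lcn2 (-3.60), Reg3g (-1.31) and Ccnd1 (-1.11) passed together with Stat4. Their limma adjusted p values were 0.0437 to 0.046. That fit called 84 of all 18193 genes and 4 of the 66 other pathway and target genes, against 11 and 0 with all arrays. The lists were chosen with earlier results of these data known, so nothing is read from these counts. Other Stat3-induced genes had mean differences in the other direction. The kinase genes Pim1 and Pim3 differed by 0.34 and 0.27, Hif1a, the hypoxia-inducible factor, by 0.45, and the immediate early factor Junb by 0.20, none past the test. Pim1, Pim3 and Hif1a were higher in TPCs of all 3 mice. Junb had mixed signs, with 0.30, -0.28 and 0.57 in mice 1127, 920 and 0107.

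**Figure D4:**
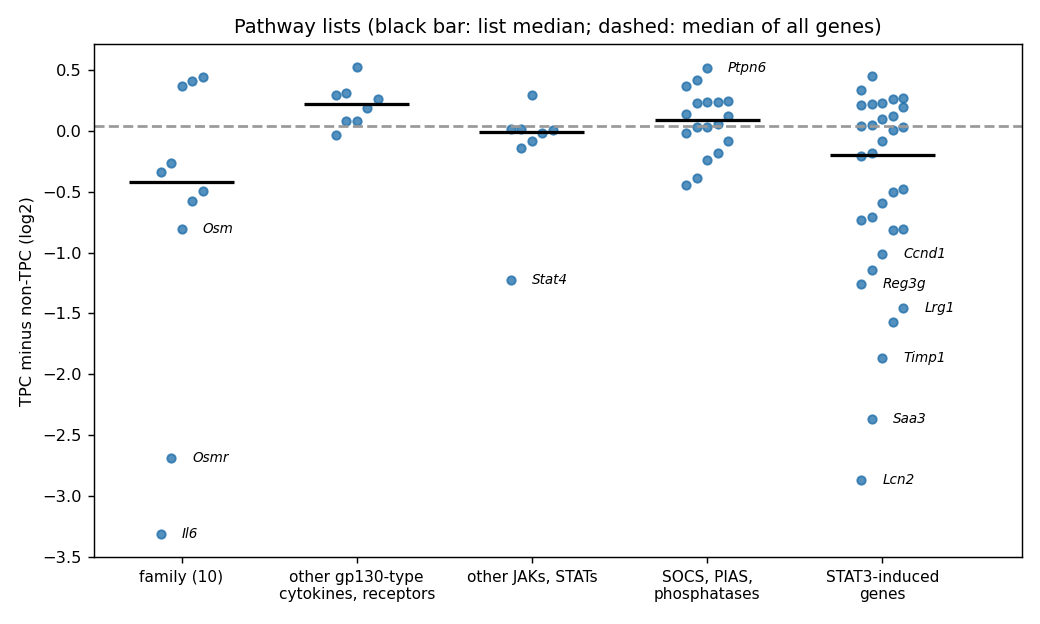
TPC minus non-TPC difference (log2) of each family gene and of each measured gene in 4 related lists, with a black bar for the median of a list and a dashed line for the median of all genes. The lists of regulators lie within about 0.6 of 0 except Stat4, and the targets reach from 0.45 down to the -2.87 of Lcn2.

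Markers of several host cell types, though not of lymphocytes, had lower values in TPCs. Past the limma test were 2 alveolar type 2 markers, 1 mesothelial and 1 neutrophil marker, and 0 of the other lists. Over all genes that test called 0.0605% lower. The replicate block fit called 1 alveolar type 2, 1 mesothelial, 1 general leukocyte and 1 club cell marker lower, against 0.0715% of all genes. In TPCs of all 3 mice 13.8% of all genes were lower, the share against which the counts below stand. Of 10 fibroblast markers 7 were lower in TPCs of all 3 mice (median difference -1.99), and their summed linear signal was 1608 to 3373 in TPCs and 3674 to 24081 in non-TPCs. In the non-TPCs of mice 1127, 920 and 0107 that sum was 24081, 6462 and 3674, and the Il6 level followed the same order of mice, 9.94, 7.58 and 5.87. Col1a2, a collagen chain of fibroblasts, was at 11.11, 8.08 and 6.38 in these arrays and between 5.92 and 5.97 in TPCs. Dcn, a matrix proteoglycan and the brightest of the list, was at 11.58, 10.36 and 10.94 in TPCs and at 13.82, 12.38 and 11.51 in non-TPCs. As the sum is linear, Dcn weighs most in it. Col3a1, Postn, Thy1, Dpt and Pdgfrb had the same order of mice in non-TPCs, and Col1a1 was nearly level in mice 920 and 0107. Pdgfra (6.43, 4.98 and 8.11) and Lum (9.53, 5.50 and 7.10 in mice 1127, 920 and 0107) did not follow that order. Col3a1, Pdgfra and Lum were below the first quartile in all TPC arrays. The part of fibroblasts in the Il6 and Osmr values was not tested.

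Most markers of the myeloid and general leukocyte lists had the same direction. Macrophage markers were lower in TPCs of all 3 mice for 8 of 10, with a summed signal of 1889 to 4568 in TPCs and 4080 to 10784 in non-TPCs. Lyz2, a lysozyme gene and the brightest of the list, was at 10.57, 11.79 and 10.14 in TPCs of mice 1127, 920 and 0107. In their non-TPCs it was at 11.82, 12.96 and 11.39, so mouse 920 was highest in both fractions, as it was for Osmr. As the sum is linear, Lyz2 weighs most in it. Among non-TPCs Cd68, Csf1r, Mrc1, C1qa, C1qb and Adgre1 were also highest in mouse 920. Cd14 was nearly level in mice 1127 and 920 (10.59 and 10.62), and Marco and Itgam were highest in mouse 0107. The sums of the macrophage, general leukocyte, alveolar type 2, alveolar type 1 and club cell lists were all highest in the non-TPC array of mouse 920. Neutrophil markers were lower for 5 of 6 (347 to 557 against 1850 to 2558), and general leukocyte markers for 5 of 7 (1109 to 1663 against 1662 to 2971). Within the macrophage list Itgam was below the first quartile in all 6 arrays, and no neutrophil or general leukocyte marker was below it in all TPC arrays. Itgam and the general leukocyte marker Coro1a were higher in TPCs of all 3 mice. Laptm5, the brightest general leukocyte marker, differed by 0.02 with mixed signs. The part of myeloid cells and other leukocytes in the Osm, Il6 and Osmr values was not tested.

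Mesothelial markers, 0 of 6 above the median level, were lower in TPCs of all 3 mice for 5 of 6 (198 to 225 against 569 to 996). Gpm6a, at 7.89, 8.14 and 9.60 in non-TPCs of mice 1127, 920 and 0107, weighs most in the non-TPC sums. Wt1, Lrrn4 and Gpm6a were below the first quartile in all TPC arrays, and Lrrn4 in all non-TPC arrays too. Endothelial markers were lower for 4 of 10 (1703 to 2333 against 2194 to 2873), with Pecam1, Emcn and Tie1 below the first quartile in all 6 arrays. Lung epithelial markers were lower as well, for 5 of 6 alveolar type 2 genes (1583 to 1974 against 6067 to 7542), 5 of 7 alveolar type 1 genes (873 to 1108 against 2414 to 4622) and 5 of 6 club cell genes (9708 to 19679 against 12564 to 44528). Lymphocyte markers, 0 of 7 above the median level, were lower in all 3 mice for 0 genes, with sums of 385 to 427 in TPCs and 338 to 420 in non-TPCs. The neuroendocrine list had 0 of 10 genes lower in all 3 mice, 3 higher, and sums of 17226 to 21992 in TPCs and 14476 to 18590 in non-TPCs. The part of these cells in the family values was not tested either.

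**Figure D5:**
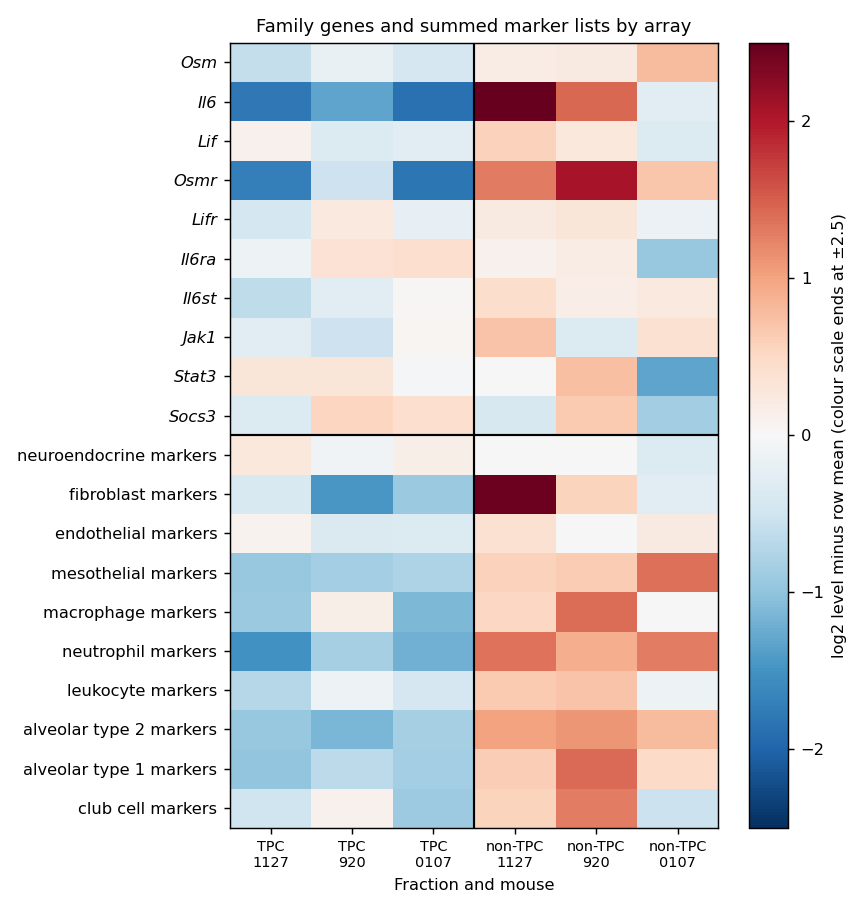
Level of the 10 family genes and summed signal of 10 marker lists in each array, as log2 values minus the mean of the row, with the colour scale ending at ±2.5. Il6 and the fibroblast list are both strongest in the non-TPC array of mouse 1127, while Osmr and the macrophage, leukocyte, alveolar and club cell lists are strongest in that of mouse 920.

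The genes most like a member across the 6 arrays were sought among those above the median level with an SD of at least 0.5, by Pearson correlation of the log2 level. The arrays come in pairs from 3 mice and differ by fraction, so these values describe the 6 arrays and are given without a test. For Osmr these were Tyrobp, a signalling adaptor of myeloid cells (r = 0.99), Anxa3, an annexin (0.99), Cxcl2, a neutrophil-attracting chemokine (0.99), Ppic, a cyclophilin (0.99), and Ahnak, a large scaffold protein (0.99). For Il6, added after its values were seen, they were Il1r1, the interleukin 1 receptor (0.99), Efemp1, a matrix fibulin (0.99), Sned1 (0.99), Cxcl1, a further neutrophil-attracting chemokine (0.99), and Emp3 (0.99). For Il6st they were Selenop, a selenium carrier (0.96), Apoe, a lipid carrier (0.94), Lgals1, a galectin (0.93), Cavin2, a caveolar protein (0.93), and Pmp22 (0.92).

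Socs3 and Lifr were followed by other genes. The 5 most like Socs3 were Gem, a small GTPase (r = 0.99), Hipk3, a kinase (0.98), Tbc1d1 (0.97), Trp53inp1 (0.97) and H3f3b, a histone H3.3 gene (0.96), with mean differences between 0.42 and 0.64. Those most like Lifr were Resf1 (0.97), Cast, the calpain inhibitor (0.96), Calcb, a calcitonin gene-related peptide (0.94), Ccl6, a chemokine (0.94), and Lmo2, a transcriptional cofactor (0.94). Between members, the level of Osmr correlated over the 6 arrays with that of Il6 (r = 0.83), Osm (0.77), Lifr (0.75) and Il6st (0.72). It correlated less with Lif (0.51) and Jak1 (0.30), hardly with Stat3 (0.009) or Socs3 (-0.043), and at -0.22 with Il6ra. Socs3 correlated with Il6ra (0.84) and Stat3 (0.76). All 3 of these genes were lowest in the non-TPC array of mouse 0107, and the part of that array in the correlations of Socs3 was not tested.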

How the data were processed

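RNA from sorted TPCs and non-TPCs of 3 mice was measured on 1-colour Affymetrix arrays. The authors deposited log2 signals per probe set made with RMA (background correction, quantile normalisation and probe set summary), per the submitters' processing notes. No source states the log base; it was taken from the values, which run from 2.70 to 14.81, and from array medians of 6.00 to 6.04. The sources used here do not give the RMA version.

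Of 45101 probe sets, 64 were controls, 34945 had 1 gene symbol, 932 several and 9160 no listed gene. Symbols came from GEO's annotation of the platform and were updated through Entrez identifiers to RefSeq (GRCm38.p6) for 18032 of 18193 genes. The probe set with the highest mean stood for a gene, and no intensity filter was applied.

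R 4.3.3 and limma 3.58.1 served to compare the fractions (lmFit, eBayes, two-sided tests, no covariate), with Benjamini-Hochberg adjustment over all genes and a threshold of 0.05. The fit without a block was tested on simulated data, with arrays drawn independently of the mouse and changes of at least 2 units. The blocked fit and smaller differences were not tested in this way. Mice were named in the titles, so both arrays of a mouse pair. Their deviations from the fraction means correlated at 0.30, 0.46 and 0.36, and at most -0.08 between mice. Deviations sum to 0 within a fraction, so positive values within mice push those between mice below 0, and the latter add no evidence of pairing. A second fit took the mouse as replicate block (2 residual degrees of freedom against 4).

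The members and all lists were chosen with earlier results of these data known. Named were all members, genes of a pathway list past the threshold, filled up to 4 with the smallest p and 1 sign in all mice, and the 5 genes most like Osmr, Socs3, Lifr and Il6st. Il6 as a target of that search, Lcn2, Pim1, Pim3, Hif1a and Junb were picked after their values were seen, as were the fibroblast markers Pdgfra and Lum. The other marker genes given with values are among the 3 brightest of their lists. Alternatives were the replicate block, a random block, other probe set summaries, a filter on dim genes, a trended robust prior, median centring and leaving out arrays or mice.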

Additional observations from a re-analysis of the deposited data

How the results depend on the processing

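Every difference of Osmr, Osm, Il6, Lif, Lifr, Il6st and Jak1 kept its sign under every alternative run. Those of Il6ra, Stat3 and Socs3 turned to -0.0201, -0.0705 and -0.039 without both arrays of mouse 0107, with or without the replicate block, and that of Stat3 to -0.19 without its non-TPC array alone. Leaving out arrays or mice moved them over ranges of -0.0201 to 0.78, -0.19 to 0.84 and -0.039 to 0.84. Osmr ranged from -3.10 to -2.34 when single arrays or mice were left out, and its adjusted p from 0.0683 to 0.9997 without the block. The mean of all probe sets of a gene, which takes in dim ones, moved Osmr from -2.69 to -0.95, Il6st from -0.58 to -0.18, Lif from -0.34 to -0.15, Lifr from -0.27 to -0.11, Il6ra from 0.45 to 0.27 and Stat3 from 0.37 to 0.20.

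Over all genes the count past the threshold was 11, and 13 in the replicate block fit; it was 39 with a random block, 4 with the mean of all probe sets of a gene, and 0 to 84 when arrays or mice were left out. With the replicate block and 1 mouse left out, an alternative added after seeing the data, it was 0, 10 or 527, the last without mouse 0107. Among the members 0 passed, 1 with the replicate block (Osmr), and 0 to 2 with that block and 1 mouse left out, where Il6 joined Osmr without mouse 0107 (adjusted p = 0.0156). Among the other pathway genes 0 passed, 1 with the random block (Reg3g), 0 to 4 without single arrays or mice, and 12 with the block and without mouse 0107. The block changed no other call among the family and pathway genes. With genes above the median level alone, Il6 and Lif give no value. Dim signal limits Il6 in TPCs, and 3 arrays a fraction limit every interval.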
